A study of Homo sapiens with 4 samples.

Results

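Non-muscle myosin II is the motor that pulls on actin filaments in cells that have no sarcomeres. Each molecule is built from a pair of heavy chains (MYH9, MYH10 or MYH14), essential light chains (MYL6) and regulatory light chains (MYL9, MYL12A or MYL12B). Phosphorylation of the regulatory light chain by myosin light chain kinase (MYLK) switches the motor on, and myosin phosphatase, made of the catalytic subunit PPP1CB and the targeting subunit PPP1R12A, removes the phosphate again. In breast cancer cells this contractile system is known for its part in migration and invasion. The study measured phosphorylated myosin light chain as a protein, in MDA-MB-231 cells made to overexpress QPRT and their vector controls. The values below are RNA levels only, from other cell lines with control or QPRT shRNA.

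These 10 genes were taken as a fixed list of heavy chains, light chains, kinase and phosphatase, and all 10 were found among the 50653 genes of the table by Ensembl identifier. All 10 had a mean of at least 1 FPKM over the libraries and belonged to the 14321 genes that did so, but MYL9 passed only through its level in BT-20. The series holds 4 libraries of total RNA, 1 each from BT-20 cells with control shRNA, BT-20 cells with QPRT shRNA, MDA-MB-468 cells with control shRNA and MDA-MB-468 cells with QPRT shRNA. Both are established human breast cancer cell lines of the triple-negative type. By the study's methods all 4 cultures carried a lentiviral short hairpin RNA (shRNA) vector and had been selected with puromycin, and QPRT, the target of the hairpin that differs from the control, is an enzyme of NAD synthesis. The lines were grown in different media, so that line and medium cannot be told apart. With 1 library per combination no difference between 2 libraries has a replicate check. Fewer cells of a kind and less RNA per cell cannot be told apart in such bulk samples.

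Levels are in FPKM, a fragment count scaled to transcript length and to library size. The fragments behind these values were recovered, and numbered between 10321996 and 10945948 per library. QPRT, the targeted gene, had 249 FPKM with control and 40.5 FPKM with QPRT shRNA in BT-20. The MDA-MB-468 libraries had 117 and 18.3 FPKM, so it was lower with its shRNA in each line. Epithelial markers were high in every library (summed level of the 6 markers 7238 to 12189 FPKM), and of the hormone receptor genes PGR was listed at 0 in all of them. ESR1, the other one, was detected in each, at 5.51 and 5.76 FPKM in BT-20 and at 1.87 and 1.05 FPKM in MDA-MB-468 (lower in MDA-MB-468, adjusted p = 1.81e-06 from limma). Of 11 smooth muscle markers, a tissue rich in MYL9 and MYLK, the summed level was 24.1 to 28.4 FPKM, carried mostly by SMTN, TAGLN and SYNM, while MYH11 did not exceed 0.325 FPKM and DES 0.176 FPKM. The summed level of 11 striated muscle markers was 0.420 to 1.61 FPKM, and 8 or 9 of them were at 0 in each library. Of the 7 fibroblast markers the sum was 15.6 to 33.3 FPKM, most of it COL1A1. The sum of 7 gut and plasma cell markers was 68.2 FPKM with control and 23.6 FPKM with QPRT shRNA in BT-20, against 152 and 24.0 FPKM in MDA-MB-468. These markers moved with the shRNA, and their part in the differences below was not tested.

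The regulatory light chains are the part of the motor that the kinase and the phosphatase act on, so the start of their coding sequences is shown. Each line gives 75 bases from the start codon, read from the principal GENCODE 29 transcript (GRCh38), and the capitals mark the adjacent threonine and serine codons that the kinase phosphorylates. The stretch lies in exon 2 of each transcript on the plus strand, in MYL9 at chr20:36544885-36544959, in MYL12A at chr18:3253248-3253322 and in MYL12B at chr18:3272899-3272973.
MYL9: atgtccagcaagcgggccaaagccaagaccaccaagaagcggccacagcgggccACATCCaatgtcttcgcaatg
MYL12A: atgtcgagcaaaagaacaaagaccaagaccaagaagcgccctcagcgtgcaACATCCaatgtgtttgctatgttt
MYL12B: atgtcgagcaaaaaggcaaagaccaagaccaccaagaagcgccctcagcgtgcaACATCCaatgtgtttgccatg
The marked codons are the same 6 letters in the 3 genes. They are codons 19 and 20 in MYL9 and MYL12B, and codons 18 and 19 in MYL12A, counted from the start codon.

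Over the whole coding sequence MYL12A and MYL12B shared 95.2% of aligned bases and 97.7% of residues. MYL9 shared 78.9% of bases with MYL12A and 80.8% with MYL12B, but 93.0% of residues with either. In windows of 50 bases, 11.4% of the MYL12A transcript and 9.42% of the MYL12B transcript also occurred in transcripts of another gene, while none of the MYL9 transcript did. In windows of 100 bases no window of the 3 light chain genes was shared. These shares include pseudogenes and antisense genes. Between MYL12A and MYL12B themselves 76 windows of 50 bases were shared, of 1180 in MYL12A and 1200 in MYL12B, and how reads in them were assigned is not given in the sources used here. MYL12A (chromosome 18, from 3247481 to 3256236) and MYL12B (chromosome 18, from 3261479 to 3278431) are neighbours on the plus strand, and MYL9 lies on chromosome 20 from 36541484 to 36551447.

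MYL9 separated the cell lines more than any other of the 10 genes. Its level was 57.6 FPKM in BT-20 with control shRNA, 34.0 in BT-20 with QPRT shRNA, 0.238 in MDA-MB-468 with control shRNA and 0.101 in MDA-MB-468 with QPRT shRNA. These values rest on 1176, 713, 5 and 2 fragments, so MYL9 was abundant in both BT-20 libraries and close to the limit of detection in both MDA-MB-468 libraries. The ratio of BT-20 to MDA-MB-468 was 242 with control shRNA, with an exact Clopper-Pearson 95% interval of 104 to 748 that covers counting error only. With QPRT shRNA the same ratio was 337 (95% interval 93.0 to 2791). The low MDA-MB-468 values correspond to 0.413% and 0.296% of the BT-20 values with the same shRNA.

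The genes whose pattern over the 4 libraries was most like that of MYL9, among 10378 named genes with a mean of at least 5 FPKM, were SNHG18, FTCD and PXMP4. Likeness was the smallest distance between log2(FPKM + 1) values centred on the mean of each gene, which was 0.193 for SNHG18, 0.206 for FTCD and 0.289 for PXMP4. With control shRNA these genes had 62.5, 59.8 and 45.4 FPKM in BT-20 and 0.277, 0.160 and 0.0716 FPKM in MDA-MB-468. In MDA-MB-468 with QPRT shRNA all 3 were listed at 0. With 4 libraries the measure mostly reflects presence in BT-20 and near absence in MDA-MB-468.

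The other regulatory light chains were higher in MDA-MB-468. MYL12A had 300 and 237 FPKM in BT-20 with control and QPRT shRNA, and 504 and 447 FPKM in MDA-MB-468, so both MDA-MB-468 libraries lay above both BT-20 libraries. MYL12B had 464 and 405 FPKM in BT-20, against 634 and 593 FPKM in MDA-MB-468, again without overlap. The share of all genes without overlap was not counted, so here and below such an order only describes these libraries. Summed over the 3 genes, regulatory light chain RNA was 822 and 677 FPKM in BT-20, against 1138 and 1040 FPKM in MDA-MB-468. MYL9 made up 7.01% and 5.02% of that sum in BT-20, against 0.0209% and 0.00969% in MDA-MB-468. MYL12B held the largest share in every library (55.7% to 59.9%).

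MYL6, the essential light chain, had 417 FPKM in BT-20 with control shRNA, 331 in BT-20 with QPRT shRNA, 274 in MDA-MB-468 with control shRNA and 303 in MDA-MB-468 with QPRT shRNA. Both MDA-MB-468 values were below both BT-20 values. MYL6 (chromosome 12, from 56158161 to 56163496) overlaps exons of MYL6B on the same strand and of SMARCC2 on the other strand, and 4.81% of its 50-base windows recur in another gene. Strandedness of the libraries is not given in the sources used here, so reads cannot be told apart from those of overlapping genes on the other strand, which MYH10, MYH14, MYL12A, MYL12B, MYLK and PPP1R12A also have.

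**Figure D1:**
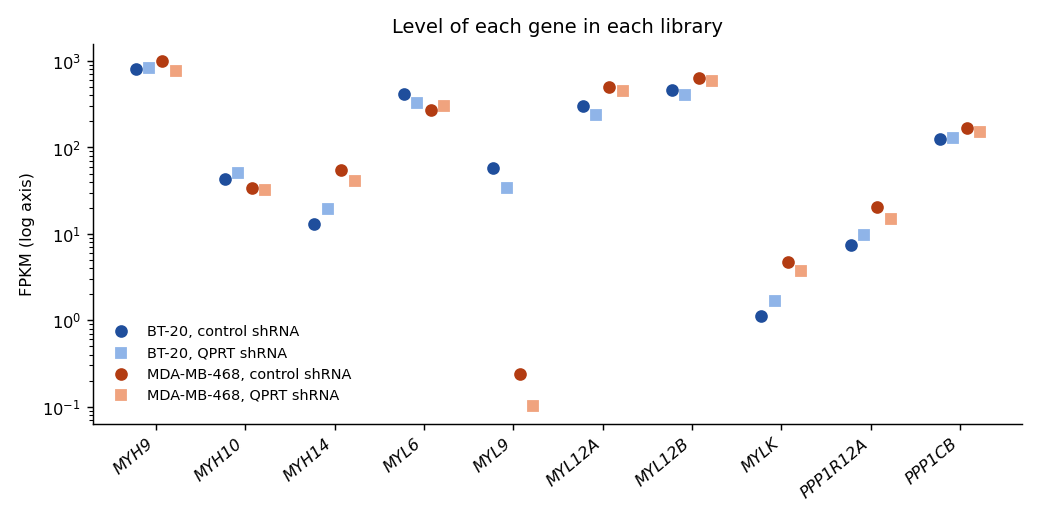
Level of each of the 10 genes in each library in FPKM, on a log axis, with circles for control shRNA and squares for QPRT shRNA. MYL9 spans from 57.6 FPKM in BT-20 to 0.101 FPKM in MDA-MB-468, while MYH9 stays between 768 and 996 FPKM.

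Among the heavy chains, MYH9 dominated both lines and MYH14 distinguished them. MYH9 (heavy chain of myosin IIA, chromosome 22, from 36281277 to 36388067, minus strand) had 808 and 828 FPKM in BT-20 with control and QPRT shRNA, and 996 and 768 FPKM in MDA-MB-468. The MDA-MB-468 values lay on either side of the BT-20 values. MYH14 (myosin IIC, chromosome 19, from 50188186 to 50310544, plus strand) had 13.1 and 19.3 FPKM in BT-20, against 54.4 and 41.0 FPKM in MDA-MB-468. The ratio of MDA-MB-468 to BT-20 for MYH14 was 4.16 with control shRNA (95% counting interval 3.83 to 4.52) and 2.12 with QPRT shRNA (1.97 to 2.29). MYH10 (myosin IIB, chromosome 17, from 8474205 to 8630761, minus strand) moved the other way, with 43.3 and 50.1 FPKM in BT-20, against 33.8 and 32.5 FPKM in MDA-MB-468.

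The order of levels between genes depended on the length that was used. The deposited FPKM values divide by the mean length of all transcripts annotated for a gene, and for MYH9 that length was 1203 bases although its longest coding transcript has 7554 bases. For MYH10 the lengths were 2518 and 7762 bases, and for MYH14 they were 5002 and 6902 bases. MYH9 was thus the highest of the 10 genes in every library by FPKM. Per kilobase of the longest coding transcript it ranked behind MYL12B and MYL12A in every library, and also behind MYL6 in every library except MDA-MB-468 with control shRNA. Ratios of 1 gene between libraries are not touched by this choice. Differences on the log2(FPKM + 1) scale are touched for low genes such as MYLK, since the added 1 weighs more at a lower level. The filter on low values also depends on the length. The 2-fold counts and limma calls below were not repeated on the longer lengths.

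On the deposited scale MYH14 made up 1.51% of heavy chain FPKM in BT-20, against 5.02% in MDA-MB-468 with control shRNA, and 2.15% and 4.87% with QPRT shRNA. Per kilobase of the longest coding transcript the MYH14 shares were 6.23% and 18.9% with control shRNA, and 8.63% and 18.3% with QPRT shRNA. MYH9 held 91.3% to 93.5% on the first scale and 75.2% to 84.5% on the second. As a share of heavy chain fragments, MYH14 took 5.71% in BT-20 (exact 95% binomial interval 5.30% to 6.14%) and 17.5% in MDA-MB-468 (16.9% to 18.1%) with control shRNA. The larger MYH14 share in MDA-MB-468 was seen on each of these scales and with either shRNA.

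**Figure D2:**
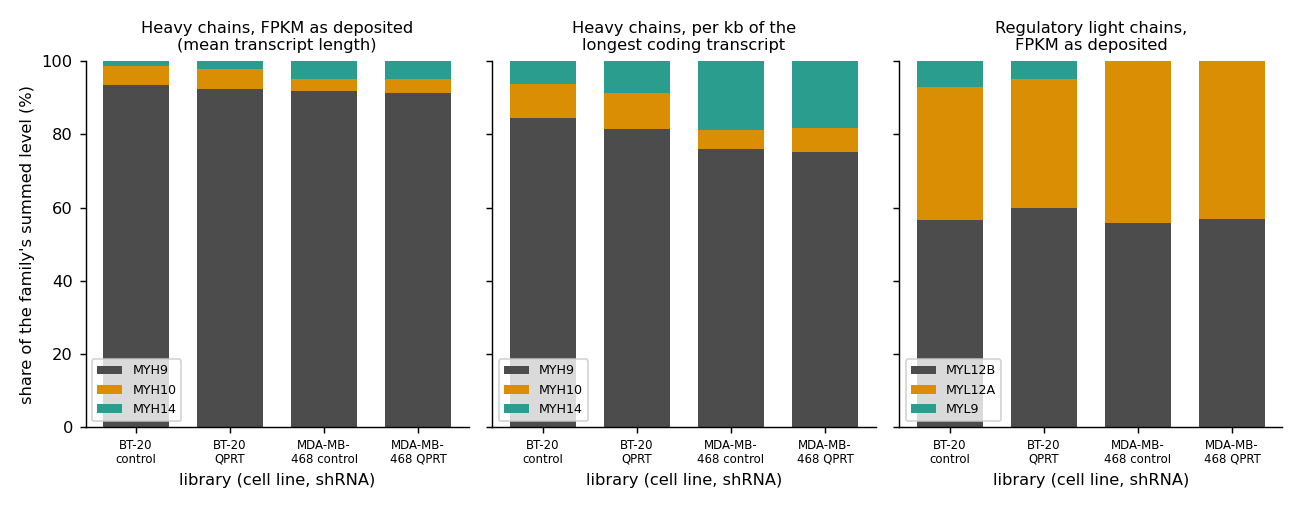
Share of each heavy chain gene (left and middle) and regulatory light chain gene (right) in the summed level of its family, in percent, for each library. With control shRNA the MYH14 segment is 1.51% in BT-20 against 5.02% in MDA-MB-468 (left), or 6.23% against 18.9% (middle), and MYL9 is visible only in BT-20.

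The light chain kinase gene was expressed at low level and the phosphatase subunits at very different levels. MYLK (chromosome 3, from 123610049 to 123884331, minus strand) had 1.12 and 1.67 FPKM in BT-20 with control and QPRT shRNA and 4.73 and 3.74 FPKM in MDA-MB-468, from 43, 66, 188 and 140 fragments. PPP1R12A, which directs the phosphatase to myosin (chromosome 12, from 79773563 to 79935460, minus strand), had 7.41 and 9.63 FPKM in BT-20, against 20.7 and 14.7 FPKM in MDA-MB-468. The MDA-MB-468 libraries lay above the BT-20 libraries for both genes. PPP1CB, the catalytic subunit (chromosome 2, from 28751640 to 28802940, plus strand), had 125 and 128 FPKM in BT-20, against 168 and 151 FPKM in MDA-MB-468. It serves other targeting subunits besides PPP1R12A, and it shares 460 exonic bases with SPDYA on the same strand.

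The ratio of MDA-MB-468 to BT-20 with control shRNA was 4.24 for MYLK (95% counting interval 3.03 to 6.06), 2.79 for PPP1R12A (2.30 to 3.40) and 1.34 for PPP1CB (1.27 to 1.41). With QPRT shRNA the ratios were 2.24 (1.66 to 3.05), 1.53 (1.27 to 1.85) and 1.18 (1.12 to 1.24). All 3 ratios were thus smaller with QPRT shRNA than with control shRNA. The approximate 95% interval of the difference between these log2 ratios excluded 0 for each gene. It ran for MYLK from -1.56 to -0.28, for PPP1R12A from -1.25 to -0.49 and for PPP1CB from -0.30 to -0.08. This interval covers counting error and no spread between cultures. It also excluded 0 for every other member except MYL9, and the share over all genes was not counted. For PPP1CB the order turned when the trend on GC content and length was removed, to a log2 difference between the lines of -0.01 with control shRNA beside 0.17 with QPRT shRNA.

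Between the lines, 4 of the 10 genes differed at least 2-fold on the log2(FPKM + 1) scale with control shRNA, namely MYH14, MYLK and PPP1R12A higher and MYL9 lower in MDA-MB-468. Of all genes tested, 31.6% differed that much. PPP1R12A was below 2-fold when the trend on GC content and length was removed (0.97 instead of 1.37), which left 3 genes. With QPRT shRNA it was 2 of 10, MYH14 and MYL9, against 31.4% of all genes. It was MYL9 alone when libraries were scaled to the upper quartile of all listed genes. MYL9 passed the filter on low values only through BT-20 and so had to differ, and its place in these counts is a description. The median absolute difference of the 10 genes was 0.68 (control shRNA) and 0.59 (QPRT shRNA), beside 0.65 and 0.63 over all genes.

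limma, fitted to all 14321 genes with cell line and shRNA as terms, called 7 of the 10 genes for cell line at an adjusted p under 0.05, in a background where 55.1% of all genes were called. MYH14, MYL12A, MYL12B, MYLK and PPP1R12A were higher in MDA-MB-468, and MYH10 and MYL9 were lower. MYL9 passed the filter on low values only through BT-20 and so had to differ, and its mean log2 difference of -5.28 is a description. The mean log2 difference was 1.51 for MYH14 (standard error 0.223, adjusted p = 1.1e-10 from limma) and 1.13 for MYLK (0.291, adjusted p = 0.000305). It was 0.96 for PPP1R12A (standard error 0.247, adjusted p = 0.000287 from limma) and 0.83 for MYL12A (0.189, adjusted p = 4.01e-05). MYL12B (0.50, adjusted p = 0.0165 from limma) and MYH10 (-0.48, adjusted p = 0.0479) passed too, but kept the call under only 6 and 7 of 10 alternatives. MYL6 (-0.36, adjusted p = 0.0911), PPP1CB (0.33, adjusted p = 0.146) and MYH9 (0.10, adjusted p = 0.684) did not pass in limma. The fit has 1 residual degree of freedom per gene and takes both shRNAs of a line as its replicates, so it compares these libraries. Its prior degrees of freedom were infinite, so each standard error came from a trend of variance over all genes. A gene's own residual, the gap between its shRNA differences in the lines, did not enter its standard error. With no filter on low values the prior degrees of freedom were 0.94 and the standard error of MYH14 was 0.339. The fit then called none of the 10 genes and none of all genes.

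**Figure D3:**
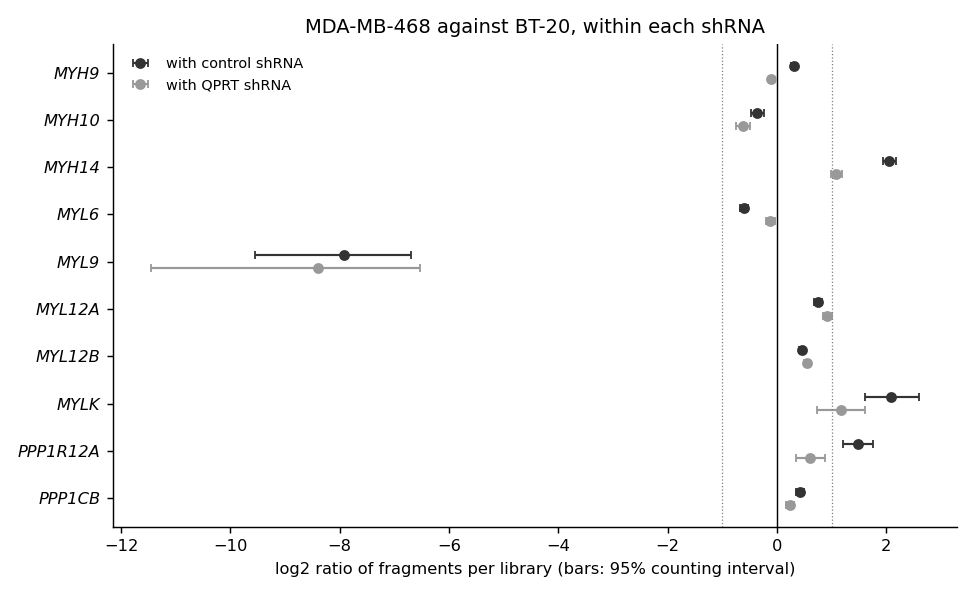
log2 ratio of fragments per library, MDA-MB-468 over BT-20, with control shRNA (black) and QPRT shRNA (grey); bars are 95% Clopper-Pearson counting intervals and dotted lines mark 2-fold. MYL9 stands far to the left at -7.92 and -8.40, and MYH14, MYLK and PPP1R12A lie to the right with the grey points nearer to 0.

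On the log2(FPKM + 1) scale none of the 10 genes differed by 2-fold between QPRT shRNA and control shRNA in either line. The ratio of MYL9 in MDA-MB-468, from 5 and 2 fragments, was beyond 2-fold on the fragment scale only, with an interval that included no change. In BT-20, 1.7% of all genes differed that much, and in MDA-MB-468 it was 1.89%. The 10 genes lay between -0.74 and 0.53 on the log2(FPKM + 1) scale in BT-20 and between -0.46 and 0.15 in MDA-MB-468. In BT-20, 6 were higher and 4 lower with QPRT shRNA, and the median of the list was 0.03 beside 0.05 over all genes. In MDA-MB-468, 9 of the 10 were lower and only MYL6 was higher, and the median was -0.17 beside 0.01 over all genes, of which 47.6% were lower.

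In BT-20 the lower genes were all light chains. MYL9 was at 59.0% of its control value (95% counting interval 53.7% to 64.8%), which is the largest difference among the 10 genes in either line apart from the 5 and 2 fragments of MYL9 in MDA-MB-468. MYL6 was at 79.3% (75.4% to 83.5%), MYL12A at 79.1% (74.5% to 84.1%) and MYL12B at 87.3% (84.0% to 90.7%) of the control value. The heavy chain genes MYH14 and MYH10 were higher, at 148% (134% to 163%) and 116% (107% to 125%), while the interval of MYH9 included no change (102%, 99.7% to 105%). MYLK was at 149% (100.3% to 225%) and PPP1R12A at 130% (104% to 163%), and the interval of PPP1CB included no change (102%, 96.7% to 108%).

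In MDA-MB-468 the heavy chain genes MYH9 and MYH14 were lower with QPRT shRNA, at 77.1% (95% counting interval 75.1% to 79.2%) and 75.3% (71.2% to 79.7%) of control. PPP1R12A was at 71.2% (60.9% to 83.1%), MYLK at 79.0% (63.0% to 98.8%) and PPP1CB at 89.7% (85.3% to 94.4%). The regulatory light chains differed less, with MYL12A at 88.8% (84.8% to 92.9%) and MYL12B at 93.5% (90.5% to 96.6%). MYL6 was at 111% (104% to 117%), and the interval of MYH10 included no change (96.1%, 87.5% to 106%). For MYL9 the ratio from 5 and 2 fragments was 42.4% with an interval of 4.04% to 259%.

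Only MYL9, MYL12A and MYL12B had the same sign in both lines, all lower with QPRT shRNA. For MYL9 in MDA-MB-468 the interval included no change, so its sign there is open. The other 7 genes had opposite signs, and so had 54.6% of all genes. Among these 7, the intervals of MYH9 and PPP1CB in BT-20 and of MYH10 in MDA-MB-468 included no change. Those of MYH14, MYL6, MYLK and PPP1R12A excluded it in both lines. With scaling to the upper quartile of all listed genes, MYH9 (-0.08) and PPP1CB (-0.08) were also lower in BT-20. The gap between the lines was widest for MYH14, at 0.53 (BT-20) and -0.40 (MDA-MB-468), and next for PPP1R12A, at 0.34 and -0.46. The gap was -0.93 for MYH14 and -0.80 for PPP1R12A, beside a median absolute gap of 0.32 and a 90th percentile of 0.83 over all genes. With the trend on GC content and length removed it was -1.005 for MYH14 and -0.46 for PPP1R12A.

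**Figure D4:**
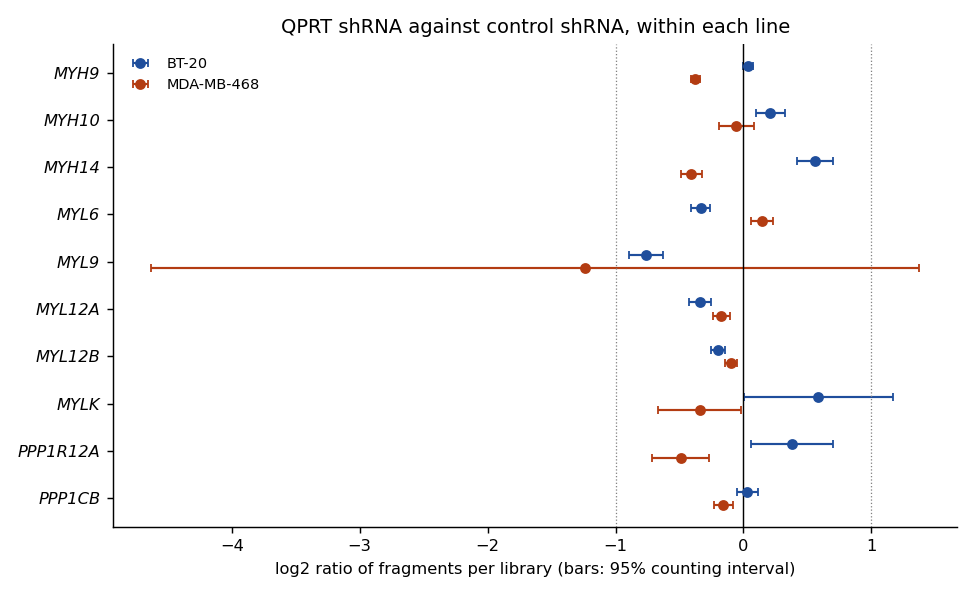
log2 ratio of fragments per library, QPRT shRNA over control shRNA, in BT-20 (blue) and MDA-MB-468 (red); bars are 95% Clopper-Pearson counting intervals and dotted lines mark 2-fold. The light chains MYL12A and MYL12B lie left of 0 in both lines, while MYH14, MYLK and PPP1R12A lie right of 0 in BT-20 and left of 0 in MDA-MB-468.

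Over both lines limma called none of the 10 genes for shRNA at an adjusted p under 0.05, and 0.628% of all genes were called. None of the 10 genes had an unadjusted p under 0.05 in that fit, beside 4.80% of all genes. limma-voom on the recovered fragments called none of them after adjustment, but MYL9 was under 0.05 before adjustment there (mean log2 difference -0.78, adjusted p = 0.608 from limma-voom) and in limma with the trend on GC content and length removed (-0.51, adjusted p = 0.969). The mean log2 difference was widest for MYL9, at -0.46 (standard error 0.267, adjusted p = 1.00 from limma).

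The differences between shRNAs went with base composition across the transcriptome. Across 14232 genes, which are not independent replicates, Spearman's rho between the log2 difference and GC content was -0.283 in BT-20, against 0.288 in MDA-MB-468. PPP1CB and PPP1R12A are among the AT-rich members with 38.0% and 39.0% GC, and MYH14 and MYL9 are GC-rich with 63.0% and 60.7%. After the trend on GC content and length was removed, PPP1R12A stood at 0.12 instead of 0.34 in BT-20, while in MDA-MB-468 it stood at -0.34 instead of -0.46. PPP1CB went from 0.03 to -0.20 and from -0.16 to -0.03. MYH14 stayed at 0.49 in BT-20 and went to -0.52 in MDA-MB-468, and MYL9 in BT-20 stayed at -0.73.

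**Figure D5:**
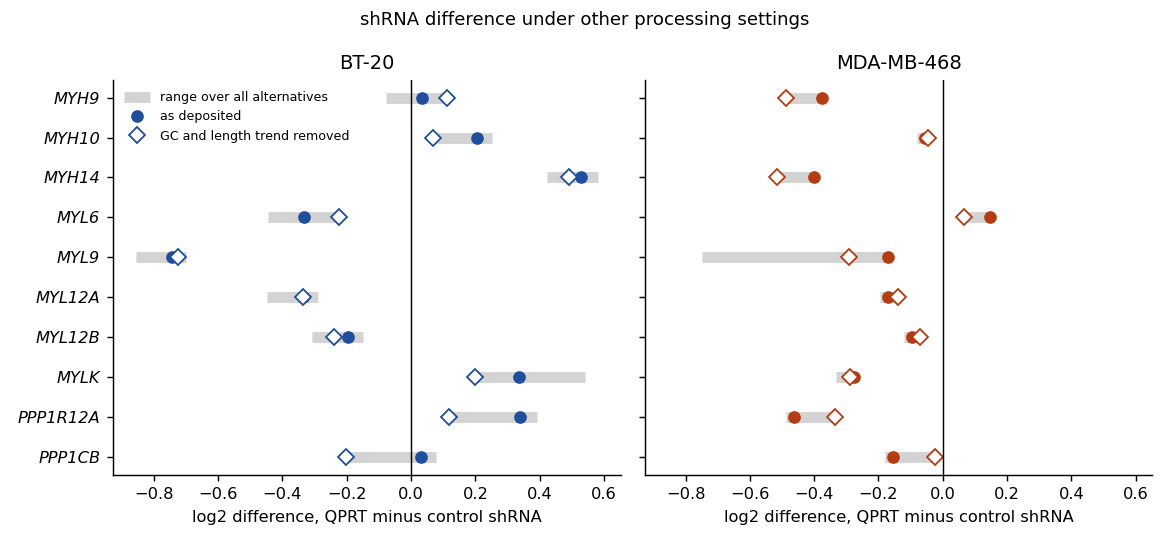
log2 difference between QPRT and control shRNA for each gene in BT-20 (left) and MDA-MB-468 (right), as deposited (filled circles), with the trend on GC content and length removed (open diamonds) and over all alternatives (grey bars). In BT-20 the bars of MYH9 and PPP1CB cross 0, and those of MYH14 (0.42 to 0.58) and of the light chains do not.

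The wider machinery around myosin II was followed in 3 lists. Of 16 kinases linked to the light chain or the phosphatase, 14 were tested. limma called 2 of them higher and 4 lower in MDA-MB-468 than in BT-20 (55.1% of all genes called), and none for shRNA, with a lowest adjusted p of 1.00 (0.628% of all genes called). Both higher calls, DAPK1 and MYLK4, passed the filter on low values only through MDA-MB-468 and so had to differ. PAK4, a p21-activated kinase and the highest of the list, had 124 and 106 FPKM in BT-20, against 85.9 and 90.0 FPKM in MDA-MB-468. DAPK3, a kinase that phosphorylates both the light chain and PPP1R12A, had 109 and 105 FPKM in BT-20, against 33.2 and 59.5 FPKM in MDA-MB-468. DAPK1, its relative, was nearly absent from BT-20 (0 and 1 fragments) and had 9.13 and 10.8 FPKM in MDA-MB-468.

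Of 10 paralogs and inhibitors of the phosphatase, 8 were tested. Between the lines limma called 4 higher and 1 lower in MDA-MB-468 (55.1% of all genes called), and none for shRNA (0.628% of all genes), with a lowest adjusted p of 0.949. Of the higher ones, PPP1R14D passed the filter on low values only through MDA-MB-468 and so had to differ. PPP1R14B, an inhibitor of the catalytic subunit and the highest of the list, had 265 and 231 FPKM in BT-20, against 373 and 501 FPKM in MDA-MB-468. PPP1R14C, a relative of it, had 2.76 and 6.99 FPKM in BT-20, against 15.8 and 15.6 FPKM in MDA-MB-468. PPP1R12B, a paralog of PPP1R12A, ran opposite to it between the lines, with 15.4 and 18.5 FPKM in BT-20, against 12.7 and 9.02 FPKM in MDA-MB-468.

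Of 18 partners of the myosin filament, all tested, limma called 5 higher and 7 lower in MDA-MB-468 (55.1% of all genes called). TPM2 among the higher ones passed the filter on low values only through MDA-MB-468. ACTN4, an actin crosslinker, had 854 and 756 FPKM in BT-20, against 548 and 432 FPKM in MDA-MB-468. TPM2, a tropomyosin, was nearly absent from BT-20 (1 and 6 fragments) and had 48.9 and 66.7 FPKM in MDA-MB-468. SVIL, which binds myosin II and actin, had 54.0 and 57.4 FPKM in BT-20, against 20.2 and 14.4 FPKM in MDA-MB-468. For shRNA 1 partner was called (0.628% of all genes), S100A4, a calcium-binding protein that binds the MYH9 tail. It had 5.23 and 12.2 FPKM in BT-20, against 153 and 213 FPKM in MDA-MB-468 (mean log2 difference 0.78, adjusted p = 0.0495 from limma), and it was called under 1 of 10 alternatives.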

How the data were processed

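Total RNA libraries (TruSeq) were sequenced by the authors on an Illumina NovaSeq system, 1 library per cell line and shRNA. The submitters' processing notes name CASAVA, FastQC, MultiQC, TopHat2 2.0.12 and HTSeq 0.6.1; the genome build and annotation are not given in the sources used here. The authors deposited FPKM values per Ensembl gene. For 97.6% to 97.8% of values above 0 of single-transcript genes, and 87.2% to 87.6% of all, FPKM times the mean transcript length in GENCODE 29 was a whole multiple, within 0.02, of what 1 fragment is worth. For MYH9, MYH14, MYL12B and PPP1R12A the length nearest the GENCODE mean that gave whole fragments in all 4 libraries was used (2 lengths did so for MYH9). Coordinates are from GENCODE 29 and not from the authors' files. Symbols were matched for 49414 of 50653 genes.

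Differences are on log2(FPKM + 1), which understates those of low genes, for genes whose FPKM averaged 1 or more. Ratios in the text are of fragments per library total, with exact Clopper-Pearson 95% intervals; fragments are not independent molecules, so intervals cover counting error only. limma 3.58.1 (R 4.3.3, trend, Benjamini-Hochberg over all genes) was fitted to 4 libraries with cell line and shRNA, and tested on simulated data first. The authors' DESeq2 test was not run. Alternatives were a pseudocount of 0.1, scaling to the upper quartile of tested genes or to TPM, no filter, a mean FPKM of at least 5, removal of the lowess trend (fraction 0.3) on GC content and length, 1.5-fold, limma without the trend or without the other term, and limma-voom on fragments; scaling to the upper quartile of all listed genes was added after seeing the data. The 10 genes and all lists were chosen with earlier results of these data known. The text names the 10 genes, QPRT, markers, at most 3 genes per list (highest level, largest rise and fall between lines), the 3 genes most like MYL9, and S100A4, named after its value was seen. Scripts ran in Python 3.11.15 with scipy 1.17.1, statsmodels 0.14.6, Biopython 1.88, matplotlib 3.10.9, pandas 2.3.3 and numpy 2.4.6.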

Additional observations from a re-analysis of the deposited data

Results flagged for a closer look

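For 7 of the 10 genes the difference between QPRT shRNA and control shRNA had opposite signs in the cell lines. The gap, MDA-MB-468 minus BT-20 on the log2(FPKM + 1) scale, was -0.41 for MYH9, -0.26 for MYH10, -0.93 for MYH14, -0.61 for MYLK, -0.80 for PPP1R12A and -0.19 for PPP1CB. For MYL6 it was 0.48, in the other direction. These gaps were not tested for want of replicates, and 54.6% of all genes had opposite signs. The relation of the differences to GC content, which ran in opposite directions in the lines, moved with this pattern, and its part in it was not tested beyond removal of the trend, after which PPP1CB had the same sign in both lines and its gap turned from -0.19 to 0.18. The gap shrank to -0.46 for PPP1R12A, -0.11 for MYH10 and 0.29 for MYL6, and it was -1.005 for MYH14.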

How the results depend on the processing

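Of the 40 differences (10 genes in 4 comparisons) under 276 alternative values, none at 2-fold or more changed sign, and 3 smaller ones did. The 276 include values with no filter and at a mean FPKM of at least 5. Those could not move, as these settings change only which genes are tested. MYH9 in BT-20 went from 0.04 to -0.08 and PPP1CB in BT-20 from 0.03 to -0.08 with scaling to the upper quartile of all listed genes. With the trend on GC content and length removed, PPP1CB in BT-20 went to -0.20 and the difference of PPP1CB between the lines with control shRNA from 0.42 to -0.01. At a threshold of 1.5-fold, 1 gene (MYL9) differed between shRNAs in BT-20 instead of 0, and 5 genes differed between the lines with QPRT shRNA instead of 2. That count was 1 (MYL9, which had to differ) with scaling to the upper quartile of all listed genes, where MYH14 was at 0.89. With no filter on low values, 0 of the 10 genes (and 0 of all, instead of 7893) were called for cell line instead of 7. The prior degrees of freedom of that fit were 0.94 instead of infinite. The mean log2 difference of MYH14 stayed at 1.51, with a standard error of 0.339 instead of 0.223, and the cause of the lost calls was not tested. PPP1R12A fell below 2-fold between the lines with control shRNA with the trend on GC content and length removed (0.97), which left 3 genes. Under the other 9 alternatives of limma 5 to 7 genes were called, and MYH14, MYL12A and PPP1R12A were among them in each. So was MYL9, which passed the filter on low values only through BT-20 and so had to differ. MYLK was called in each of them that tested it, and it was not tested at a mean FPKM of at least 5. The count for shRNA was 0 under all 10 alternatives. Over all genes, genes at 2-fold or more between shRNAs numbered 244 in BT-20, but 792 with a pseudocount of 0.1, 370 with no filter, 103 at a mean FPKM of at least 5 and 1286 at 1.5-fold. The 271 of MDA-MB-468 became 756, 417, 96 and 1313. Between the lines 4519 (control shRNA) and 4491 (QPRT shRNA) became 7754 and 7592 at 1.5-fold and 2984 and 2923 at a mean FPKM of at least 5. Scaling to the upper quartile of all listed genes moved the median of all genes between the lines from 0.12 to -0.11 with control shRNA and from 0.07 to -0.07 with QPRT shRNA. Genes called for shRNA by limma numbered 90, but 39 with scaling to the upper quartile of all listed genes, 45 at a mean FPKM of at least 5, 2 with the trend removed and 0 with no filter or without the cell line term. The labels give no replicate numbers, and the fit with both terms compares the shRNAs within each line. At 2 to 5 fragments the level of MYL9 in MDA-MB-468 is limited by depth.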
